A study of Zea mays with 10 samples.

Results

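Allene oxide synthase and allene oxide cyclase carry out consecutive steps of jasmonate synthesis. The genes followed here are the 5 rows of the deposited count table that hold maize genes of these enzymes, chosen by gene identifier from 48174 listed genes. They are the synthase genes aos1 (GeneID:542150), aos3 (GeneID:103644066) and aos4 (GeneID:103644067) and the cyclase genes aoc1 (GeneID:542151) and aoc2 (GeneID:100273356). All 5 had enough counts to be tested, as did 21048 genes in all. The libraries hold nuclear RNA of the maize inbred line B73, from the last 1 mm of primary and seminal roots of seedlings grown for 3 days. Every seedling was kept in water for 1 h and then in 175 uM 5-ethynyl uridine (EU) for 1 h, so the reference libraries come from labelled tissue as well. EU is a uridine analog that enters RNA made during the labelling and lets this RNA be biotinylated. The EU nascent group (5 libraries) holds RNA pulled down on streptavidin, and the nuclear group (5 libraries) holds total nuclear RNA that skipped the pulldown. The study set labelled RNA, as a measure of transcriptional activity, against total nuclear RNA. A pulldown from tissue without EU was not analysed here, so RNA bound without label was not measured.

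Jasmonates are plant hormones made from unsaturated fatty acids and are best known for wound and defence responses, and in roots for slowing growth. In the plastid, a lipoxygenase adds oxygen to linolenic acid, allene oxide synthase (a cytochrome P450 of the CYP74 family) turns the hydroperoxide into an unstable allene oxide, and allene oxide cyclase closes the ring to give oxophytodienoic acid. Oxophytodienoate reductases and beta-oxidation in the peroxisome follow, and the product is joined to isoleucine. That conjugate is perceived by the COI1 receptor together with JAZ repressors of the TIFY family, whose removal frees MYC2-type transcription factors.

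The libraries held 2391209, 5770915, 2417533, 5686059 and 3997604 counts in EU nascent replicates 1 to 5, and 1323450, 5227257, 1702909, 20397606 and 4271254 in nuclear replicates 1 to 5. The labels call the replicates biological. Of the matched root tip and meristem markers, 8 of 9 had counts (rtcs had none). Their summed level was 251 to 323 CPM in EU nascent and 259 to 336 CPM in nuclear. The gene wox5B was too low to be tested, with 48 counts over all libraries (mean 1.34 CPM in EU nascent and 0.821 CPM in nuclear). The sum thus came almost wholly from MCM6, cyc1, cyc2, cyc3, pcna1, pcna2 and cenH3. Whether these are particular to the root tip was not tested. Among leaf markers, rca1, PEPC1 and lhcb3 had no count in any library and ssu1 had 2 counts over all libraries, while me3 and Ppdk1 were present, so that the list summed to 619 to 675 CPM in EU nascent and 482 to 544 CPM in nuclear. The root hair gene rth3 had 38.7 to 48.8 CPM in EU nascent and 34.2 to 41.5 CPM in nuclear. Endosperm markers summed to 31.6 to 37.5 CPM in EU nascent and 34.7 to 41.7 CPM in nuclear, with o2 and FL2 at 0. A count of 0 over all libraries allows up to 3 counts, for counting error only.

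None of the synthase and cyclase genes passed the test between captured and total nuclear RNA, in a comparison in which many genes did. In the quasi-likelihood test of edgeR, with p adjusted over all tested genes by the Benjamini-Hochberg method, 0 of the 5 passed an adjusted p of 0.05, beside 40.9% of all tested genes (19.8% higher and 21.1% lower in EU nascent). At an unadjusted p under 0.05 the count was also 0, beside 49.0% of all tested genes. This fit does not use the replicate number. With the number as a block, aoc1 had an edgeR p of 0.0303 before adjustment and 0.0591 after it. DESeq2 called 0 of the 5, beside 31.3% of the genes it gave an adjusted p, and limma-voom called 0, beside 44.7%. Before adjustment, aoc1 and aoc2 passed a p of 0.05 in limma-voom, beside 52.0% of all tested genes, and 0 of the 5 did in DESeq2. The groups overlapped for each of the 5 genes, and did not overlap for 24.8% of all tested genes. The median log2 fold change, EU nascent over nuclear, was 0.25 over the 5 genes and 0.02 over all tested genes. In absolute size, the log2 fold change of aos4 exceeded that of 74.5% of tested genes, and that of aos3 63.3%. For aoc1, aoc2 and aos1 these shares were 44.5%, 43.7% and 19.7%. Of all tested genes, 3.72% had a lower mean CPM than aos4 and 10% than aos3. For aoc1, aoc2 and aos1 these shares were 39.6%, 39% and 79.1%. A gene that did not pass is not thereby shown to be unchanged. When library totals alone set the scale, aoc2 passed (log2 fold change 0.42, edgeR adjusted p = 0.0184), beside 48.2% of all genes, and the median of all genes was then 0.19.

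The synthase gene aos1 was at 59.3, 61.1, 56.1, 70.7 and 60.6 scaled CPM in EU nascent replicates 1 to 5 and at 46.4, 61.4, 46.0, 74.6 and 89.1 in nuclear replicates 1 to 5. CPM here are counts relative to the library total after trimmed-mean (TMM) scaling. The EU nascent libraries all fell inside the range of the nuclear ones, of which replicates 1 and 3 were lowest and replicate 5 highest. Means were 61.6 ± 5.47 CPM in EU nascent and 63.5 ± 18.6 CPM in nuclear (SD, n = 5 each). The log2 fold change was -0.11 ± 0.14 (SE), with a 95% interval of -0.39 to 0.18, and an edgeR adjusted p of 0.56. On the linear scale this interval runs from 0.762-fold to 1.13-fold. Its sign was not fixed: leaving out nuclear replicate 5 gave 0.03, and library totals alone gave 0.07.

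The other synthase genes, aos3 and aos4, are neighbours in the RefSeq gene order of maize, with no annotated gene between them. Both had counts with a fraction of 0.5 in the same 5 libraries and whole counts in the other 5, while aos1, aoc1 and aoc2 had whole counts in every library. A fraction of 0.5 is what a read divided between a pair of genes would give, so the split of reads between aos3 and aos4 is uncertain. The gene aos3 had 17.5, 26, 10, 38 and 22.5 counts in EU nascent replicates 1 to 5 and 7.5, 14.5, 7, 73.5 and 19 counts in nuclear replicates 1 to 5. For aos4 there were 20.5, 17, 6, 18 and 10.5 counts in EU nascent and 7.5, 6.5, 1, 52.5 and 9 counts in nuclear. With so few reads, counting error is large: the 1 count of aos4 in nuclear replicate 3 has an exact 95% Poisson interval of 0.0253 to 5.57 counts.

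Scaled to the library, aos3 was at 7.31, 4.28, 3.87, 6.29 and 5.19 CPM in EU nascent and at 6.51, 2.87, 4.35, 3.87 and 4.74 CPM in nuclear. Its log2 fold change was 0.39 ± 0.25 (SE, n = 5 per group), with a 95% interval of -0.12 to 0.91 and an edgeR adjusted p of 0.212. The gene aos4 was at 8.12, 2.80, 2.32, 2.98 and 2.36 CPM in EU nascent and at 6.51, 1.23, 0.622, 2.72 and 2.25 CPM in nuclear. In both groups the library numbered 1 was the highest for aos3 and for aos4, and for aos4 it stood clear of the other 4. The log2 fold change of aos4 was 0.51 ± 0.41, with a 95% interval of -0.34 to 1.36 and an edgeR adjusted p of 0.334. The level of aos4 was higher in EU nascent in 5 of 5 pairs of libraries with the same number, and that of aos3 in 4 of 5. For aos4 the log2 differences were 0.32, 1.19, 1.90, 0.13 and 0.07 for numbers 1 to 5. The one for number 3 rests on 6 counts against 1. Without EU nascent replicate 1 the value for aos4 was 0.17. With both genes summed into 1 row, a choice made after these fractions were seen, the log2 fold change was 0.46 ± 0.26, with a 95% interval of -0.09 to 1.00 and an edgeR adjusted p of 0.168. These intervals are wide: at this depth a 1.88-fold higher level of aos3 and a 2.57-fold higher level of aos4 lie at their upper ends.

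**Figure D1:**
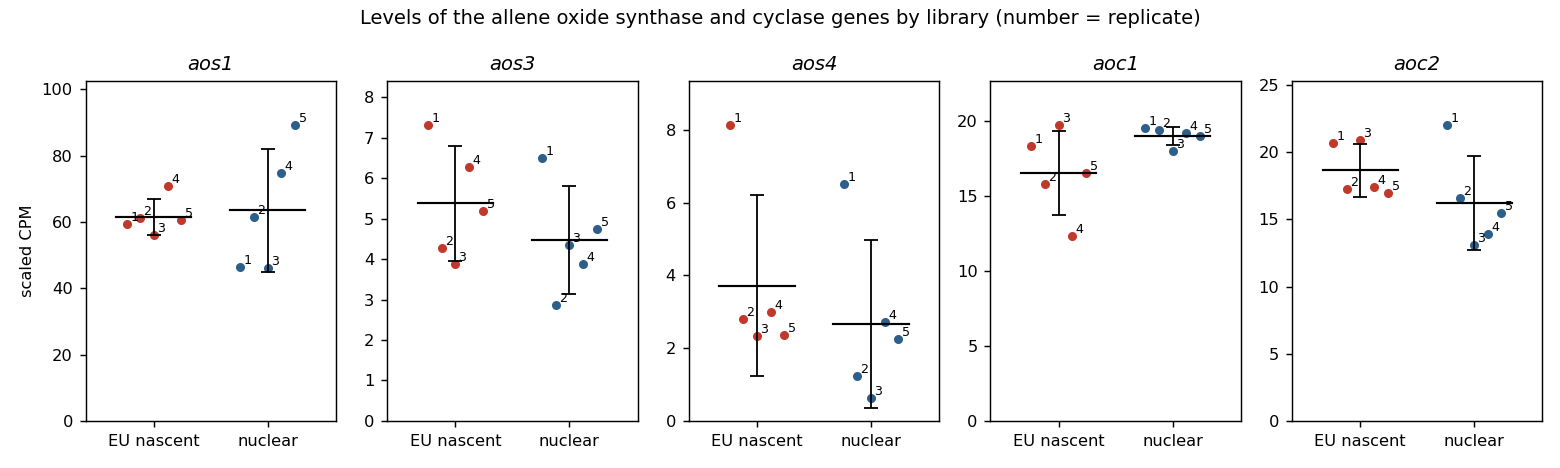
Scaled CPM (y axis, from 0, with its own scale for each gene) of the 3 synthase and 2 cyclase genes in each EU nascent (red) and nuclear (blue) library. Points carry the replicate number, and black lines are the mean ± SD of 5 libraries. The groups overlap for every gene, and replicate 1 is the highest library of both groups for aos3 and aos4.

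The cyclase genes had values on opposite sides of 0. The gene aoc1 was at 18.3, 15.8, 19.7, 12.3 and 16.5 CPM in EU nascent and at 19.5, 19.4, 18.0, 19.2 and 19 CPM in nuclear. The nuclear libraries lay within a narrow band, and 3 of the EU nascent libraries (replicates 2, 4 and 5) fell below it. Means were 16.5 ± 2.83 CPM in EU nascent and 19 ± 0.605 CPM in nuclear (SD, n = 5 each), or coefficients of variation of 17.2% and 3.18%. The counting error of a single library is wider than that nuclear band, since the 24 counts of nuclear replicate 1 have an exact 95% Poisson interval of 15.4 to 35.7 counts. The log2 fold change was -0.25 ± 0.13 (SE), with a 95% interval of -0.53 to 0.03 and an edgeR adjusted p of 0.143. EU nascent replicate 4 bore on it most: without this library the value was -0.14.

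The gene aoc2 was at 20.7, 17.3, 20.9, 17.4 and 17.0 CPM in EU nascent and at 22.0, 16.6, 13.1, 13.9 and 15.5 CPM in nuclear. All EU nascent libraries were above 4 of the nuclear ones, and nuclear replicate 1 was above all of them. Means were 18.6 ± 1.97 CPM in EU nascent and 16.2 ± 3.51 CPM in nuclear (SD, n = 5 each). The log2 fold change was 0.25 ± 0.14 (SE), with a 95% interval of -0.05 to 0.54 and an edgeR adjusted p of 0.167. Without nuclear replicate 4 it was 0.16, and without nuclear replicate 1 it was 0.31 (edgeR adjusted p = 0.0717). On the linear scale the intervals run from 0.692-fold to 1.02-fold for aoc1 and from 0.968-fold to 1.45-fold for aoc2.

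Whether members differ in their fold change was tested with the ratio of their counts within each library, which needs no scaling between libraries. The log2 ratio of aoc1 to aoc2 (with 0.5 added to each count) was -0.18, -0.13, -0.08, -0.50 and -0.04 in EU nascent replicates 1 to 5 and -0.17, 0.23, 0.46, 0.47 and 0.29 in nuclear replicates 1 to 5. All EU nascent libraries had fewer counts of aoc1 than of aoc2, and 4 of the 5 nuclear libraries had more. The ratio was lower in EU nascent by -0.44 on the log2 scale and in 5 of 5 same-numbered pairs, with an exact permutation p of 0.0317 (two-sided) and an adjusted p of 0.317 over the 10 pairs of members. The difference thus failed the correction, which no pair could pass alone, even at the smallest p that 5 against 5 libraries allow. The permutation test does not use the pairing by number, and the exact sign-flip test of the 5 pairs gave a p of 0.0625, the smallest it can give. For the other 9 pairs the exact permutation p lay between 0.119 (aos3 to aoc1, 0.50) and 0.786 (aos3 to aoc2, 0.05). The largest difference was that of aos4 to aoc1, by 0.85, with an exact permutation p of 0.175 and an adjusted p of 0.538, higher in EU nascent in 5 of 5 pairs. It was 0.55 without nuclear replicate 3, 0.56 without EU nascent replicate 1 and 1.22 without nuclear replicate 1 (exact permutation p = 0.0317, adjusted 0.106). The ratio of aos1 to aos4 was lower in EU nascent in 5 of 5 pairs, by -0.62, with an exact permutation p of 0.333. It was -0.28 without EU nascent replicate 1, -0.41 without nuclear replicate 3 and -1.11 without nuclear replicate 1 (exact permutation p = 0.0159, adjusted 0.0794). The smallest exact permutation p that 5 against 5 libraries allow is 0.00794. With 1 library left out the smallest is 0.0159, the value given for aos1 to aos4 without nuclear replicate 1.

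**Figure D2:**
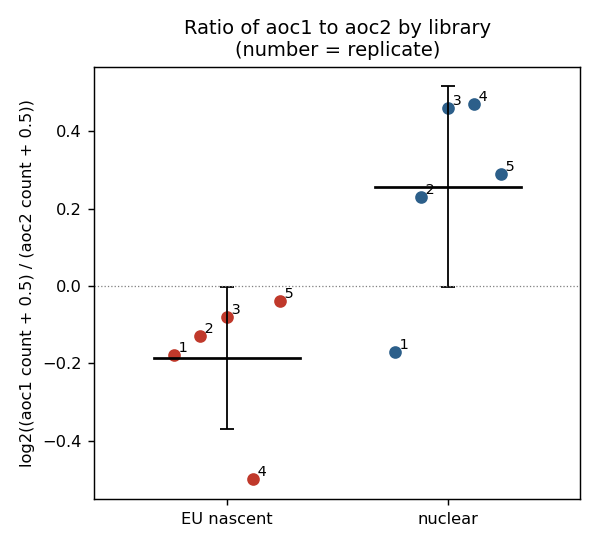
The log2 ratio of aoc1 to aoc2 counts, with 0.5 added to each (y axis), in EU nascent (red) and nuclear (blue) libraries; points carry the replicate number and black lines are the mean ± SD of 5 libraries. The EU nascent libraries lie between -0.50 and -0.04, and nuclear replicate 1, at -0.17, is the nuclear library among them.

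Replicate number was looked at next, because the library numbered 1 was the highest of both groups for aos3 and aos4. An edgeR F test of the 4 terms for replicate number, beside the group term, was added after the levels had been seen. It called 0 of the 5 genes, beside 4.73% of all tested genes. The smallest adjusted p among them was 0.0754, for aos4, followed by 0.11 for aos1, 0.559 for aos3, 0.683 for aoc2 and 0.844 for aoc1. For aos4 the number 1 libraries averaged 7.31 CPM and the other 8 libraries 2.16 CPM. For aos1 the number 1 libraries averaged 52.8 CPM and the others 64.9 CPM. This was not particular to number 1, since replicate 3 was the lowest library of both groups (56.1 CPM in EU nascent and 46.0 in nuclear). EU nascent replicate 1, at 59.3 CPM, was close to EU nascent replicates 2 and 5 (61.1 and 60.6 CPM). In bulk tissue, fewer cells of a type and less RNA per cell cannot be told apart. With the number 1 libraries left out, the log2 fold change of aos4 was 0.32 (edgeR adjusted p = 0.459), and those of aos1, aos3, aoc1 and aoc2 were -0.17, 0.38, -0.29 and 0.27 (edgeR adjusted p = 0.304, 0.239, 0.104 and 0.113).

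In the pathway lists, the same test of replicate number called 5 of 21 tested genes, beside the 4.73% of all tested genes. They were the lipoxygenase genes ts1 (edgeR adjusted p = 0.0138) and lox4 (0.038) and 3 of 6 tested oxophytodienoate reductase genes, opr1 (edgeR adjusted p = 5.01e-07), opr2 (6.42e-05) and opr3 (0.00396). Of the 10 tested TIFY genes of a list added later, it called TIFY27 (0.0166). The reductases reduce oxophytodienoic acid or related compounds. The gene opr1 was at 49.1, 13.7, 3.10, 15.6 and 14.9 CPM in EU nascent and at 39.9, 10.8, 6.84, 11.9 and 13.5 CPM in nuclear. The gene opr2 was at 17.9, 4.61, 1.16, 6.79 and 4.01 CPM in EU nascent and at 17.1, 4.91, 1.87, 7.53 and 4.99 CPM in nuclear. The gene opr3 was at 27.6, 12.2, 3.48, 16.2 and 15.8 CPM in EU nascent and at 14.6, 11.7, 6.22, 11.8 and 11.7 CPM in nuclear. Number 1 was the highest and number 3 the lowest library of both groups for all 3 genes. The order was the same for aos4, which the test of replicate number did not call (edgeR adjusted p = 0.0754). Its lowest place rests on few reads. EU nascent replicates 3 and 5 were nearly level (2.32 and 2.36 CPM), and nuclear replicate 3 had 1 count.

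**Figure D3:**
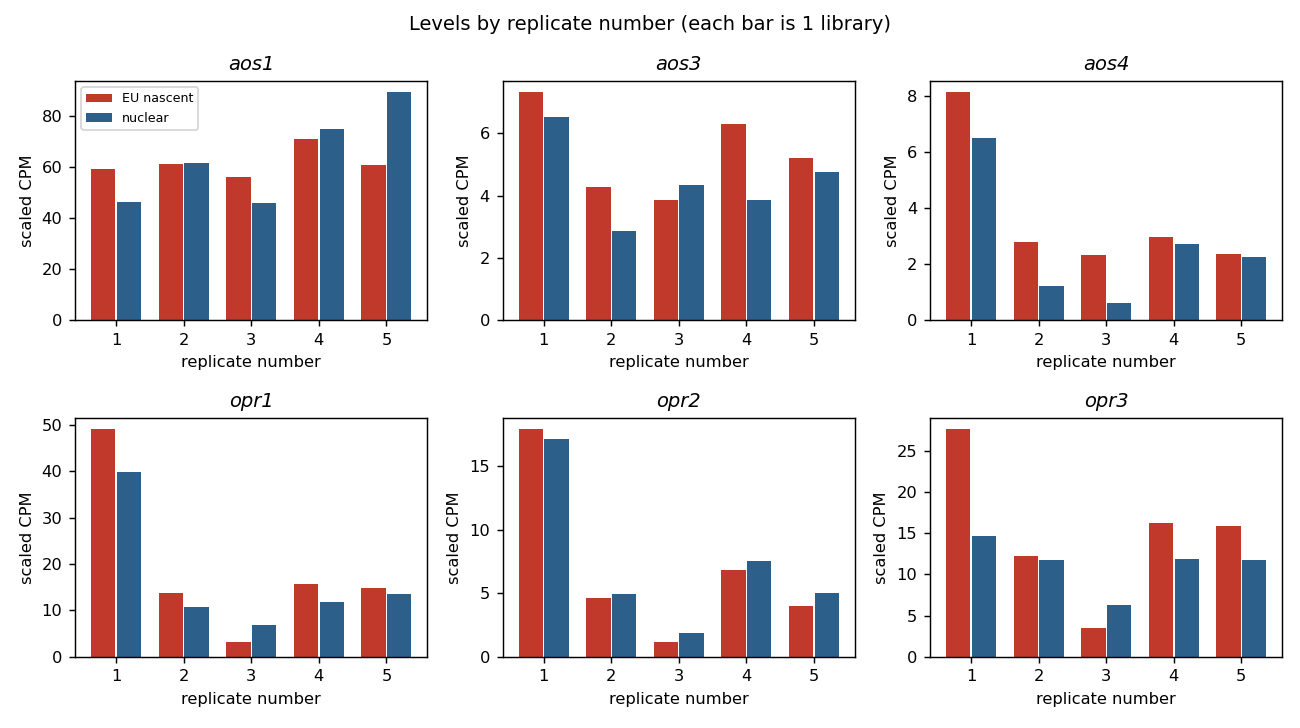
Scaled CPM (y axis, from 0) of aos1, aos3, aos4, opr1, opr2 and opr3 by replicate number (x axis), with EU nascent in red left of nuclear in blue; each bar is 1 library. The number 1 libraries are the highest of both groups for every gene shown except aos1, whose highest libraries are EU nascent replicate 4 and nuclear replicate 5.

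Between the groups, 0 of these 6 reductase genes passed the edgeR test (median log2 fold change 0.08), although opr3 did without EU nascent replicate 3 (0.59, edgeR adjusted p = 0.0349). They include opr7 (0.02 on the log2 scale, edgeR adjusted p = 0.993) and opr8 (0.14 ± 0.15, SE, 95% interval -0.17 to 0.45, and 0.03 without EU nascent replicate 2), the reductases known in maize to act in jasmonate synthesis. Of the 2 reductase genes too low to be tested, opr6 had no count in any library. Of 8 tested lipoxygenase genes 2 rose, 1 fell and 5 did not pass (median -0.05), beside the 40.9% called of all tested genes. They were matched by name, and which of them act upstream of the synthase was not tested. The gene ts1 (also lox8), which codes for the lipoxygenase that feeds jasmonate synthesis in the maize tassel, fell by 0.40 on the log2 scale (SE 0.12, edgeR adjusted p = 0.016). It was at 57.6, 73.2, 57.7, 67.6 and 44.8 CPM in EU nascent and at 68.3, 98.3, 67.8, 83.9 and 72.6 CPM in nuclear, so the groups overlapped. This call was lost without EU nascent replicate 5 (-0.29, edgeR adjusted p = 0.0535), without nuclear replicate 2 (-0.30, 0.0676) and with library totals alone (-0.22, 0.142). The lipoxygenase gene lox9 rose by 0.54 ± 0.13 (edgeR adjusted p = 0.00242), with 31.6 ± 6.03 CPM in EU nascent and 20.9 ± 1.75 CPM in nuclear (SD, n = 5 each), and its groups did not overlap. The lipoxygenase gene lox4 rose by 0.43 ± 0.12 (edgeR adjusted p = 0.00624), with 140 ± 24.7 CPM in EU nascent and 102 ± 13.1 CPM in nuclear, and its groups overlapped.

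A hydroperoxide lyase gene, listed under the synonym HPL, was the other tested CYP74 gene. This enzyme uses the same kind of substrate as allene oxide synthase and makes short volatile aldehydes. It rose by 0.63 ± 0.12 on the log2 scale (SE, edgeR adjusted p = 0.000404), with 28.8, 25.8, 27.5, 27.5 and 26.4 CPM in EU nascent and 12.2, 21.1, 14.9, 17.4 and 17.2 CPM in nuclear. Its groups did not overlap, unlike those of aos1, aos3 and aos4. The difference in fold change between HPL and the synthase genes was not tested. The synthase gene aos2, outside the 5 genes, was too low to be tested, at 1.85 ± 0.703 CPM in EU nascent and 2.36 ± 1.59 CPM in nuclear (SD, n = 5 each).

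In the list for perception and repression, downstream of synthesis, no COI1 receptor gene was matched, so ZIM genes and rel2 were tested. Of these 4 tested genes, 3 fell and 1 did not pass (median -0.51). They were ZIM34 (-1.33 ± 0.08, SE, edgeR adjusted p = 1.93e-09) and ZIM4 (-0.76 ± 0.23, edgeR adjusted p = 0.0138), named for the ZIM domain, and the co-repressor gene rel2 (-0.22 ± 0.07, edgeR adjusted p = 0.0228). The call of rel2 was lost with library totals alone (-0.04, edgeR adjusted p = 0.646), with upper-quartile scaling (-0.17, 0.0655), without EU nascent replicate 5 (-0.17, 0.0941) and without the number 4 libraries (-0.22, 0.0839), and that of ZIM4 without nuclear replicate 4 (-0.70, 0.0549). ZIM34 averaged 44.7 ± 4.85 CPM in EU nascent and 114 ± 3.83 CPM in nuclear (SD, n = 5 each). The groups did not overlap for ZIM34 and rel2 and overlapped for ZIM4. Whether these ZIM genes act as jasmonate repressors is not given by the gene table. Of 10 further tested TIFY genes, a list added after the gene table had been seen, 0 rose, 1 fell (TIFY16, -0.54 ± 0.10, edgeR adjusted p = 0.000466) and 9 did not pass (median -0.02). The transcription factor gene MYC2a, a MYC2-type activator of jasmonate responses, rose by 0.58 ± 0.09 (edgeR adjusted p = 6.66e-05), with 62.4 ± 3.26 CPM in EU nascent and 40.7 ± 6.01 CPM in nuclear, without overlap. The wound-responsive proteinase inhibitor gene MPI rose by 0.94 ± 0.26 (edgeR adjusted p = 0.00726), with 7.62 ± 2.69 CPM in EU nascent and 3.90 ± 0.981 CPM in nuclear, and its groups overlapped. Other jasmonate or wound response genes were too low to be tested, with 0 counts for tps10 and tps23 and 18 counts over all libraries for wip1. Over the pathway lists together, without the added TIFY genes, 5 of 21 tested genes rose and 4 fell (median 0.02), beside the 19.8% and 21.1% of all tested genes.

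**Figure D4:**
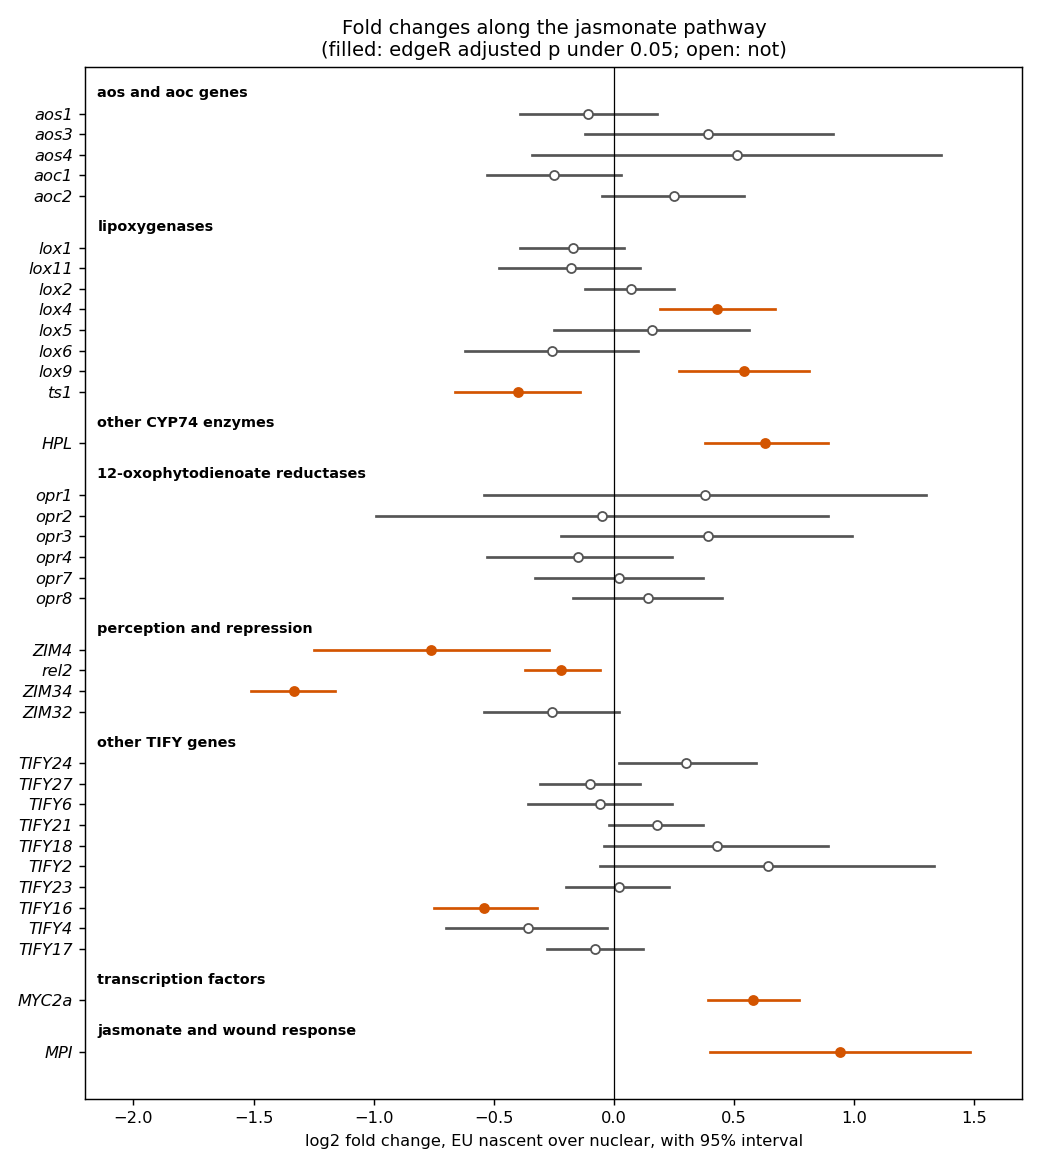
Log2 fold change, EU nascent over nuclear (x axis), with its 95% interval for the 5 aos and aoc genes and the tested genes of the pathway lists. Filled orange points passed an edgeR adjusted p of 0.05 and open grey points did not; the 5 aos and aoc genes are open, and ZIM34 has the lowest value, -1.33.

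Genes with a similar course over the 10 libraries were looked up among those with a symbol of their own and a mean of at least 5 CPM. Likeness was the root mean square difference of log2 CPM after each gene was centred on its mean. It is small for any pair of genes that vary little, so a small value alone does not show a shared course. For aos1 the nearest of 123 genes were sbp25 (0.221), sbp9 (0.226) and IPP (0.231), and for aoc1 they were IDP798 (0.12), MIR11970 (0.159) and sfp7 (0.166). For aoc2 they were GRMZM2G028813 (0.163), sbp27 (0.171) and sbp23 (0.172). For aos3 the nearest of 124 genes were COAC2 (0.242), IVR1 (0.271) and sbp19 (0.279), and for aos4, pco060792 (0.418), sfp1 (0.534) and sbp3 (0.612). The distances were largest for aos4, the member with the fewest counts in most libraries.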

How the data were processed

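The files deposited by the authors hold estimated counts of reads per gene without normalization, judged by their values, of which 96.3% were whole within 1e-06 and the rest fractions. The submitters' processing notes name HTSeq, UMI-tools, SAMtools, deepTools, STAR 2.7.10b and Trimmomatic 0.36 and 0.39, with no order, and per the labels' protocols the libraries were directional, depleted of ribosomal RNA and carried molecular identifiers. Genome build, annotation and strand setting of the counting are not given in the sources used here, so no coordinates are given. Names and neighbours came from RefSeq (Zm-B73-REFERENCE-NAM-5.0), which matched 48127 of the identifiers.

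Counts were rounded and tested in edgeR 4.0.16 (R 4.3.3) with filterByExpr, TMM scaling and the quasi-likelihood F test for group alone, on all 10 libraries, at an adjusted p of 0.05 over all tested genes, after a trial on simulated data. SEs are the absolute log2 fold change divided by the square root of F. For 438 tested genes edgeR raised the p to its Poisson bound and the SE was not raised, which among the genes here holds for opr7 and TIFY23. Alternatives included DESeq2 1.42.0 and limma-voom (limma 3.58.1). Python 3.11.15 and scipy 1.17.1 gave the exact permutation tests. Same-numbered libraries deviated together to a small degree. The correlation across genes was 0.20, 0.22, 0.18, 0.19 and 0.16 for numbers 1 to 5, and at most 0.11 with another number. Numbers 1 and 3 had the lowest totals in both groups, and the part of depth in these correlations was not tested. A pairing by number rests on these values, since the labels do not say what a number shares. The main edgeR fit and the exact permutation tests did not use it, and the fits and tests that did are given at the end.

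The members and lists were chosen with earlier results of these data known. The lists were matched on symbols and synonyms. Leaving out cts1 and DAO, which the table does not show to be the jasmonate genes meant, left no gene for activation, beta-oxidation and turnover, and plt1 and plt2 were left out of the markers. No gene of the COI1 receptor was matched either. Named genes were the members, up to 3 called genes each way per list and the 3 nearest patterns per member. Other genes (opr1 to opr3, opr7, opr8, genes too low to test) were named after their values were seen.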

Additional observations from a re-analysis of the deposited data

Results flagged for a closer look

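In a group of 5 libraries, a value is given here when its gap to the nearest other value exceeds 0.71 of the group's range, which chance produces in about 1 in 20 groups. Of 36 groups checked, 5 were found, all in libraries numbered 1. The level of aos4 in EU nascent replicate 1 was 8.12 CPM, and the other EU nascent libraries lay between 2.32 and 2.98. The level of opr1 was 49.1 CPM in EU nascent replicate 1, against 3.10 to 15.6 in the others, and 39.9 CPM in nuclear replicate 1, against 6.84 to 13.5. In nuclear replicate 1, the shallowest library, rel2 was highest at 346 CPM (others 321 to 326) and MYC2a lowest at 30.1 CPM (others 42.3 to 44.7). The part of depth or RNA quality in these values was not tested.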

How the results depend on the processing

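Over the alternatives, which included 10 fits that each left out 1 library, the log2 fold changes of aos3 (0.25 to 0.57), aos4 (0.17 to 0.69) and aoc1 (-0.30 to -0.08) kept their sign and did not pass the edgeR, DESeq2 or limma-voom test. That of aos1 changed sign with library totals alone (0.07) and ranged from -0.18 to 0.03 when each library was left out, with 0.03 without nuclear replicate 5. Its adjusted p over all settings lay between 0.28 and 0.886. That of aoc2 (0.16 to 0.42, adjusted p 0.0184 to 0.449) passed with library totals alone, at 0.42, so that the number of members called was 1 there and 0 elsewhere. Library totals alone moved the median of all genes by more than 0.1 (0.02 with trimmed-mean scaling, 0.19 without), and gave 7386 higher and 2765 lower genes. The ratio of aos3 to aoc2 turned to -0.02 without EU nascent replicate 1, -0.03 without EU nascent replicate 4 and -0.09 without nuclear replicate 2, and ranged up to 0.20 when single libraries were left out. The ratio of aoc1 to aoc2 ranged from -0.55 to -0.36. Among the other pathway genes, opr2 turned to 0.12 with library totals alone and 0.05 without the number 4 libraries and ranged from -0.53 to 0.17 when single libraries were left out, opr1 from -0.12 to 0.67, and opr7 from -0.04 to 0.09, with -0.05 for opr7 without the number 1 libraries. The log2 fold change of opr8 lay between 0.03 and 0.31, and that of opr3 between 0.17 and 0.59, over the settings. Called genes of the pathway lists together numbered 7 to 11 over the settings, against 9.

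With the replicate number as a block, the log2 fold changes were -0.09 for aos1, 0.40 for aos3, 0.43 for aos4, -0.30 for aoc1 and 0.21 for aoc2. For aoc1 the edgeR p was 0.0303 before adjustment and 0.0591 after it. No call of these genes changed, so 0 of the 5 were called, while over all genes 10446 were called, against 8602 without the block. The exact sign-flip test of 5 pairs cannot give a p under 0.0625, which the ratios of aoc1 to aoc2, aos1 to aos4 and aos4 to aoc1 reached (adjusted 0.208 each). The number 4 pair, which holds the deepest library, left aos4 too low to be tested when it was left out, so that setting has no value for it. Depth limits aos3 and aos4 most.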
